A study of Homo sapiens with 12 samples.

Results

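CENPF was knocked down by siRNA in hTERT-RPE1 cells, and the transcriptome was set against that of cells given a negative-control siRNA. The comparison sets 6 of the 12 libraries of the series against each other, taken by their labels, while the spread was estimated from all 12. It covers all 14857 genes that passed the filter of the 14862 in the deposited table of normalized counts. Library 1 of siCENPF was paired with library 1 of siNeg, and likewise for libraries 2 and 3. Genes that moved equally in the 3 libraries given an siRNA against FOXM1 were marked as not particular to siCENPF. All groups were parental hTERT-RPE1 cells in DMEM/F12 medium, a line from retinal pigment epithelium that telomerase keeps dividing. The groups were siCENPF, siCENPF and siFOXM1 together, siFOXM1, and the negative control siNeg, with 3 libraries each. Cells were left with 20 nM siRNA overnight and collected after 48 hours, per the labels. PolyA RNA was sequenced. The labels name 1 siRNA treatment per target. Its sequence, and whether it was a single duplex or a pool, are not given in the sources used here, so loss of CENPF and other effects of the siRNA cannot be told apart. Whether cells given both received 20 nM of each siRNA is not given either. Nothing in the labels says that the replicates were separate cultures, and p-values therefore reflect the spread among these libraries alone, which may be technical.

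CENPF (also called mitosin) is a large coiled-coil protein that accumulates in late S and G2 phase, sits on the nuclear envelope before mitosis and then forms part of the outermost layer of the kinetochore, the fibrous corona. There it binds microtubules and recruits dynein through NDE1 and NDEL1. It also links mitochondria to microtubules through the Miro proteins. FOXM1 is a forkhead factor that switches on genes needed for entry into mitosis, and CENPF is among the genes it is known to bind. The series asks how far each of these proteins contributes to transcription of cell cycle and centromere genes. hTERT-RPE1 cells are near-diploid, and their division is often studied because it is regular.

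Reads counted in genes numbered 13894831, 14097515 and 31302177 in siCENPF libraries 1 to 3, and 16079871, 13681255 and 35411230 in siNeg libraries 1 to 3. Library 3 of both groups thus carried more reads than libraries 1 and 2. Mitochondrially encoded genes took 2.93%, 2.25% and 2.46% of reads with siCENPF and 2.68%, 2.33% and 2.05% with siNeg. Markers of differentiated retinal pigment epithelium were nearly absent. RPE65 and TYR stood at 0 in the siCENPF and siNeg libraries, and 13 of 15 such markers were under 1 FPKM (a read density scaled to gene length and library depth). BEST1 stood higher, but its exons overlap those of FTH1 on the other strand over 14.2% of its length, and whether counting used strand is not given. The summed markers ran from 36.8 to 64.6 FPKM with siCENPF and from 31.8 to 48.2 with siNeg. Epithelial keratins KRT8 and KRT18 and the mesenchymal filament VIM were present. However, 5 of 10 general epithelial markers, EPCAM and CDH1 among them, were under 1 FPKM in all libraries. Of 10 mesenchymal and fibroblast markers 1 was, namely PDGFRA. All 10 blood and endothelial markers were under 0.2 FPKM, with summed levels of 0.0523 to 0.119 with siCENPF and 0.0867 to 0.151 with siNeg.

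The siRNA lowered its target. CENPF (ENSG00000117724, chromosome 1, 214603195 to 214664588, plus strand on hg38) stood at 893, 827 and 1017 normalized counts in siCENPF libraries 1 to 3. The siFOXM1 libraries had 7567, 7448 and 7723 and the siNeg libraries 7797, 9537 and 7993. The siCENPF libraries lay far below those of siFOXM1 and siNeg, at 10.8% of the siNeg mean (log2 change -3.21, standard error 0.07, limma adjusted p = 3.16e-16). FOXM1 stood at 3893, 3394 and 4258 normalized counts with siCENPF, against 4186, 4438 and 4763 with siNeg. Its fold change did not pass the test (log2 change -0.22, standard error 0.13, limma adjusted p = 0.47), and in each pair the siCENPF library was the lower. Exons of ITFG2 on the other strand share 15.9% of the exon bases of FOXM1. In bulk RNA, fewer cells of one kind (or one cell cycle phase) and less RNA per cell cannot be told apart, which holds for every value that follows. How many cells were in each phase was not measured here.

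Beyond the target, the response was broad in number and small in size. At a Benjamini-Hochberg adjusted p under 0.05, 671 of 14857 genes changed (4.52%), of which 425 rose (2.86%) and 246 fell (1.66%). The median log2 fold change was 0.33 among genes that rose and -0.34 among genes that fell. Only 8 genes in each direction reached an absolute log2 fold change of 1. At 0.5 or more there were 90 that rose and 43 that fell. Of the 671 genes, 667 had the same sign in all 3 pairs, whereas over all genes 17.5% were higher and 17.6% lower in all 3. For 389 of the 671 (58.0%) the siCENPF and siNeg libraries did not overlap, against 9.31% of all genes tested (4.87% higher, 4.44% lower). The calls were made from these same libraries and pairs, so the agreement of sign and the lack of overlap are no separate support for them. Genes that changed were well measured, with median levels of 1408 normalized counts for those that rose and 1099 for those that fell, against 430.3 over all genes. The calls rest on pairing by replicate number: without it 50 genes passed (32 that rose, 18 that fell, 0.337% of those tested), all of them among the 671. They also rest on a spread estimated from all 12 libraries. A fit to the siCENPF and siNeg libraries alone, with pairing, gave 295 genes (198 that rose, 97 that fell), 290 of them among the 671. Leaving out each library in turn gave 508 calls without siCENPF library 1, 593 without siCENPF library 2 and 489 without siCENPF library 3, and 413, 516 and 551 without siNeg libraries 1, 2 and 3.

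**Figure D1:**
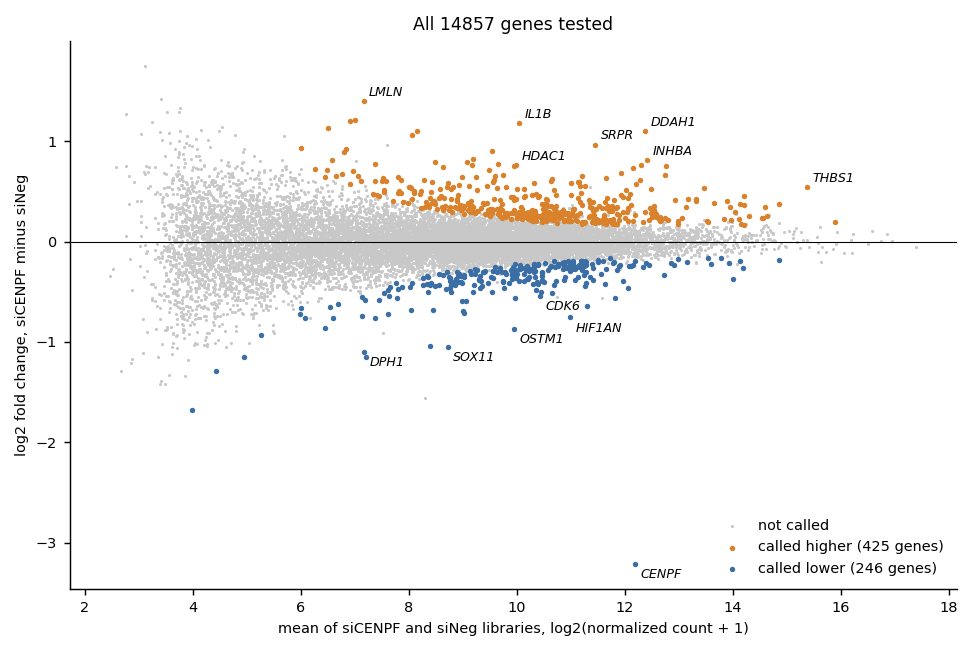
Each point is a gene, placed by its mean level over the siCENPF and siNeg libraries (log2 of normalized count + 1, horizontal axis) and by its log2 fold change of siCENPF against siNeg (vertical axis). Coloured points are genes that passed the test, 425 higher and 246 lower; CENPF lies alone at the bottom with -3.21, and most other called genes lie within 1 of zero.

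To mark what was not particular to siCENPF, each called gene was set against siFOXM1 in the same fit. Against siNeg, siFOXM1 changed 1295 genes (8.72%; 4.48% higher, 4.23% lower), and 1125 genes differed between siCENPF and siFOXM1 directly (7.57%; 4.23% higher with siCENPF, 3.35% lower). Of the 671 genes, 191 differed from siFOXM1 in the direction of their siCENPF change, 82 that rose and 109 that fell. Another 71 shifted equally, 67 that rose and 4 that fell. A gene counted as equal when siFOXM1 moved it the same way past the test and the 95% interval of the difference stayed within 0.5 times its siCENPF change. A further 17 moved further with siFOXM1, and for 392 the libraries did not settle which held. Among the 109, the median log2 change was -0.39 for siCENPF and -0.01 for siFOXM1. The 109 were chosen by that difference, so the gap between the medians follows in part from the choice. The same siNeg libraries serve both siRNAs, so an equal shift and a level particular to those siNeg libraries cannot be told apart. Without pairing, 10 genes differed and 19 were equal. Without replicate 1 of every group, 77 differed and 38 were equal.

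The genes that fell further with siCENPF than with siFOXM1 came from many pathways. OSTM1 (ENSG00000081087, chromosome 6, 108041409 to 108165854, minus strand), the partner subunit of the lysosomal chloride-proton exchanger ClC-7, stood at 806, 623 and 667 normalized counts in siCENPF libraries 1 to 3. The siFOXM1 libraries had 1506, 1118 and 1316 and the siNeg libraries 1439.8, 1094 and 1305. Every siCENPF library lay below every siFOXM1 and siNeg library, at 54.6% of the siNeg mean (log2 change -0.87, standard error 0.06, limma adjusted p = 7.23e-10). HIF1AN (ENSG00000166135, chromosome 10, 100529072 to 100559998, plus strand), the asparagine hydroxylase that blocks coactivator binding by HIF-1 alpha, stood at 1504, 1517 and 1510.2 with siCENPF. With siFOXM1 it had 2355, 2463 and 2309, and with siNeg 2620.0, 2714 and 2318. Again the siCENPF libraries lay below all of siFOXM1 and siNeg (log2 change -0.75, standard error 0.06, limma adjusted p = 1e-09), and NDUFB8 on the other strand shares 2.33% of the HIF1AN exon bases. SOX11 (ENSG00000176887, chromosome 2, 5692667 to 5701385, plus strand), a transcription factor of embryonic neural and mesenchymal cells, stood at 255, 264 and 299.6 with siCENPF. The siFOXM1 libraries had 371, 434 and 436 and the siNeg libraries 527, 552 and 617. No 2 of the 3 groups overlapped (log2 change -1.05, standard error 0.10, limma adjusted p = 1.29e-07). SOX11 also fell with siFOXM1 (-0.45) but by less, with -0.60 for siCENPF minus siFOXM1 (95% interval -0.81 to -0.39).

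Other genes among the 15 with the largest falls had smaller counts or smaller changes. DPH1, which starts diphthamide synthesis on elongation factor 2, stood at 81.7, 109.7 and 81.7 normalized counts with siCENPF, against 176, 218 and 191 with siNeg (log2 change -1.10, standard error 0.15, limma adjusted p = 3.58e-05). Its libraries did not overlap, though 19.5% of its exon bases are shared with OVCA2 on the same strand and reads cannot be divided between them. HDAC4, a class IIa histone deacetylase, stood at 132, 149.9 and 158 with siCENPF, against 237, 254 and 238 with siNeg (log2 change -0.72, standard error 0.12, limma adjusted p = 0.000183). The HDAC4 libraries of the groups did not overlap either. FAM217B had a log2 fold change of -1.04, the ubiquitin ligase TRIM36 -0.74, C3orf38 -0.69, the RNA-binding splicing regulator RBM24 -0.68 and the Rac exchange factor TIAM1 -0.68. ATL3, a GTPase that fuses endoplasmic reticulum tubules, was at -0.64. SIGIRR, an inhibitory receptor of the interleukin-1 family, was at -0.76 and fell with siFOXM1 as well (-0.56). C5orf54 was at -0.62 and lost its call without siCENPF library 1, siCENPF library 3, siNeg library 1 or siNeg library 2 (log2 -0.61 to -0.58). In the FPKM table the changes shrank by over 1.5 times for HDAC4 (-0.28), DPH1 (-0.44), SIGIRR (-0.35), TRIM36 (-0.34) and TIAM1 (-0.41, limma adjusted p = 0.0621), whose FPKM lie near the pseudocount of 0.5. Without pairing, 10 of these 15 genes, CENPF included, were still called.

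Cell cycle kinases and a motor adaptor also stood among the genes lower with siCENPF than with siFOXM1. CDK6, which drives G1 progression with D-type cyclins, stood at 1356, 788 and 1281 normalized counts in siCENPF libraries 1 to 3. The siFOXM1 libraries had 2227, 1605 and 1982 and the siNeg libraries 1764, 1471 and 1626. In each pair the siCENPF library was lower (log2 change -0.54, standard error 0.09, limma adjusted p = 0.000468), while siFOXM1 had 0.25 and the difference between the siRNAs was -0.79 (95% interval -0.97 to -0.61). AURKA, the mitotic kinase of centrosomes and spindle poles, stood at 2097, 2562 and 2248 with siCENPF, 3072, 3427 and 3279 with siFOXM1 and 2709, 3157 and 2942 with siNeg (log2 change -0.35, standard error 0.05, limma adjusted p = 5.78e-05). BICD2, the adaptor that joins dynein to nuclear pores in G2 phase, stood at 1530.3, 1317 and 1554 with siCENPF, against 1975, 1760.4 and 2048 with siNeg (log2 change -0.39, standard error 0.05, limma adjusted p = 2.02e-05). Its siFOXM1 change was -0.09, and the siRNAs differed by -0.30.

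**Figure D2:**
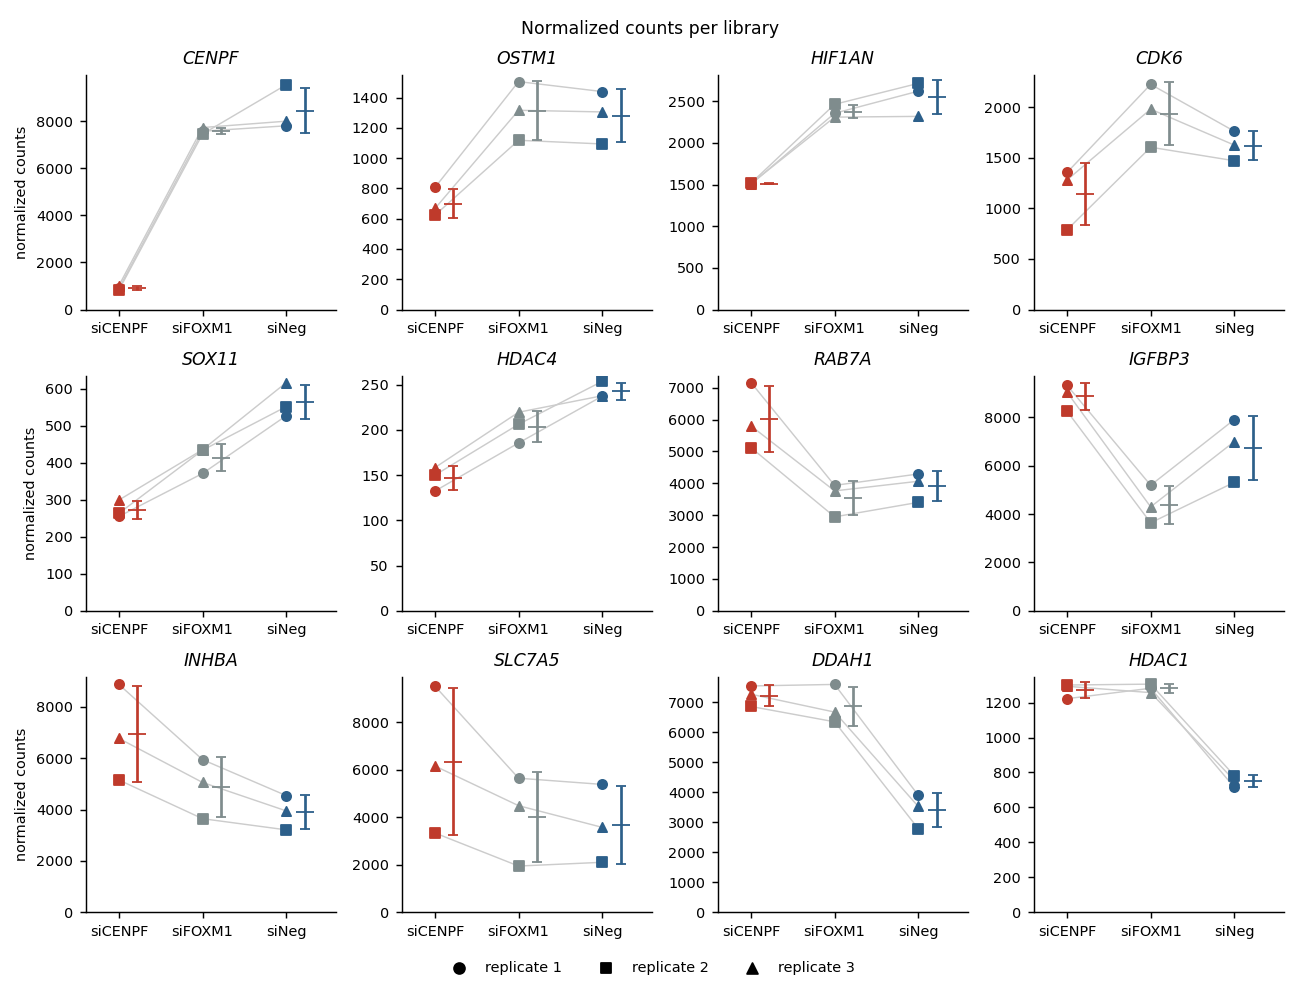
Normalized counts of 12 genes in each siCENPF, siFOXM1 and siNeg library (points; same-numbered libraries joined by grey lines), with bars for the mean ± SD over 3 libraries. OSTM1, HIF1AN and HDAC4 have all siCENPF points under all siNeg points, RAB7A has them above, and DDAH1 and HDAC1 are raised alike by siCENPF and siFOXM1.

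The series holds a further contrast that bears on these genes. Cells given siCENPF and siFOXM1 together, set against cells given siFOXM1 alone, add siCENPF without using any siCENPF or siNeg library in the contrast, although the estimate of spread is shared. This contrast was added after the data had been seen. In it, 44 genes passed (0.296%), 20 higher (0.135%) and 24 lower (0.162%). CENPF itself was at -2.50 there, with 1360.3, 1360.4 and 1284 normalized counts in libraries given both siRNAs, against 7567, 7448 and 7723 with siFOXM1. Leaving CENPF aside, 21 of the 245 genes that had fallen with siCENPF fell again (8.57%), against 23 of 14856 genes (0.155%). Their sign was negative for 213 of 245 (86.9%), against 49.7% of all genes, and their median was -0.12. Of the 425 genes that had risen, 5 rose again (1.18%, against 0.135% of all genes), 301 had a positive sign (70.8%, against 50.3%), and the median was 0.05. The genes were chosen for their siCENPF change, which favours a smaller size here. CENPF itself also fell less here (-2.50) than with siCENPF against siNeg (-3.21). Why the sizes were smaller was not tested. Without pairing 0 of the 245 and 0 of the 425 passed by limma or edgeR, with 38 and 10 at an unadjusted p under 0.05 by limma. Of all 14856 genes, 139 were lower and 153 higher at that unadjusted level. With pairing, DESeq2 called 26 of the same 245 and 8 of the same 425.

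**Figure D3:**
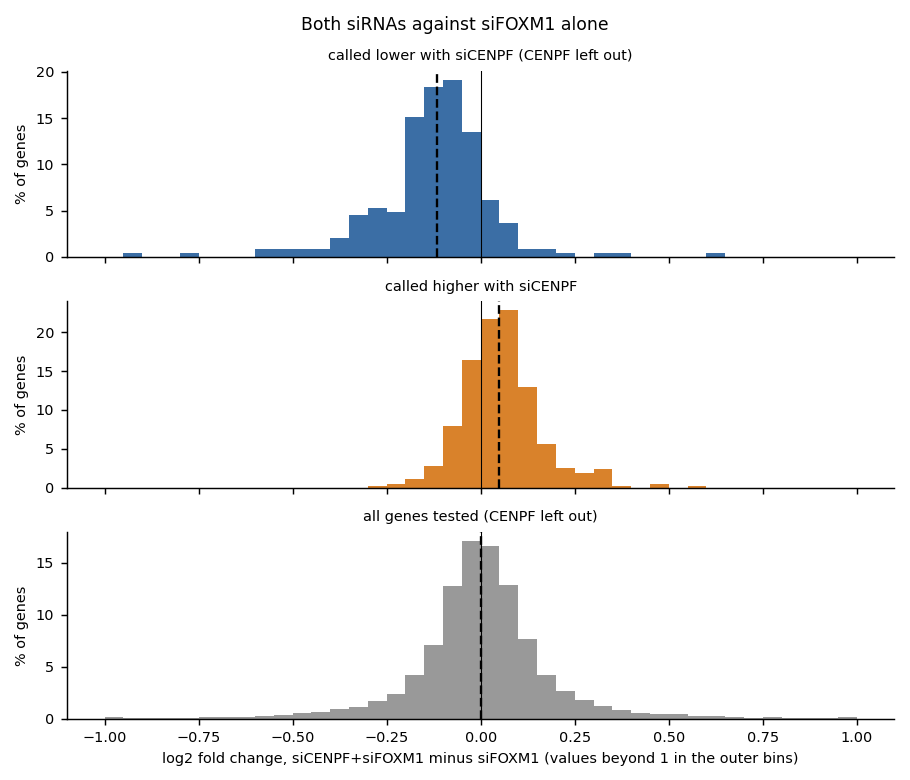
Distributions of the log2 fold change of both siRNAs against siFOXM1 alone (horizontal axis) as the percent of genes (vertical axis) for the genes called lower with siCENPF, the genes called higher, and all genes; dashed lines are medians. The genes called lower are centred on -0.12 and those called higher on 0.05, against 0.00 for all genes.

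Several of the genes named above fell a further time in that contrast. Genes marked as differing from siFOXM1 were marked against the same siFOXM1 libraries that are its baseline. A high level in those libraries alone would make both contrasts negative, so for such genes this is not an independent check. OSTM1 stood at 1036, 764 and 847 normalized counts with both siRNAs, against 1506, 1118 and 1316 with siFOXM1 (-0.57, SE 0.06, limma adjusted p = 1.7e-05). HIF1AN stood at 1775, 1687 and 1667 with both, against 2355, 2463 and 2309 with siFOXM1 (-0.47, SE 0.06, limma adjusted p = 3.96e-05). CDK6 stood at 1337, 1135 and 1402 with both, against 2227, 1605 and 1982 with siFOXM1 (-0.58, SE 0.09, limma adjusted p = 0.00299). For none of these 3 did a pair go the other way. DPH1 (-0.93), RBM24 (-0.54), C3orf38 (-0.53), ATL3 (-0.33) and AURKA (-0.28) passed too. TRAK2, the adaptor that couples mitochondrial Miro proteins to motors and was picked after its values were seen, was at -0.37 here and at -0.34 with siCENPF against siNeg. SOX11 was at -0.39 and did not pass (limma adjusted p = 0.156). The 5 genes that rose again were likewise picked after their values were seen. They were IGFBP3, a carrier of insulin-like growth factors (0.45), the kinase NEK7 (0.34), the thioredoxin-binding arrestin TXNIP (0.33), the sialomucin CD164 (0.32) and the secreted matrix protein CCDC80 (0.30). Their changes with siCENPF against siNeg were 0.41, 0.36, 0.37, 0.24 and 0.25 in that order. CD164 lost its siCENPF call without siCENPF library 1 (log2 0.19), and CCDC80 without siCENPF library 2 or siCENPF library 3 (log2 0.18 to 0.23).

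Among genes that rose with siCENPF beyond siFOXM1, RAB7A was a well-measured case. RAB7A (ENSG00000075785, chromosome 3, 128726122 to 128814796, plus strand), the small GTPase of late endosomes and lysosomes, stood at 7161, 5119 and 5800.5 normalized counts in siCENPF libraries 1 to 3. With siFOXM1 it had 3936, 2949 and 3763, and with siNeg 4293, 3403 and 4065. All siCENPF libraries were above all siFOXM1 and siNeg libraries, and siFOXM1 lay slightly under siNeg (log2 change 0.61, standard error 0.05, limma adjusted p = 1.89e-08; -0.15 with siFOXM1). IGFBP3 stood at 9322, 8252 and 9038 with siCENPF, 5193, 3640.1 and 4299 with siFOXM1 and 7908, 5314 and 6999 with siNeg. It moved in opposite directions, with 0.41 for siCENPF (SE 0.06, limma adjusted p = 4.24e-05) and -0.62 for siFOXM1. INHBA, whose product forms activin A, stood at 8873, 5150.1 and 6772 with siCENPF, 5945, 3644 and 5056 with siFOXM1 and 4546, 3209 and 3949 with siNeg. Its siCENPF libraries did not overlap those of siNeg (log2 change 0.81, standard error 0.05, limma adjusted p = 9.29e-11), and the siRNAs differed by 0.50 (95% interval 0.39 to 0.61). SLC7A5, the light chain of the large neutral amino acid transporter, stood at 9521, 3337 and 6157 with siCENPF, against 5384, 2102 and 3575 with siNeg. The groups overlapped, and the siCENPF library was higher in each pair (log2 change 0.76, standard error 0.09, limma adjusted p = 0.00023).

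The remaining genes of the 10 with the largest rise beyond siFOXM1 were of mixed function. The vasoconstrictor peptide EDN1 was at 0.80, the Polycomb protein SCML2 at 0.78, the lysosomal sialic acid exporter SLC17A5 at 0.72 and FJX1, homologue of the fly gene four-jointed, at 0.67. The vitamin D receptor VDR was at 0.60, the Hippo pathway kinase STK3 at 0.56 and the chromatin architectural factor HMGA2 at 0.53. SLC17A5 stood at 1002, 921 and 748 normalized counts with siCENPF, against 583, 547 and 486 with siNeg, and of the 10 it alone was called without pairing. All 10 kept their call when any 1 siCENPF or siNeg library was left out. In the FPKM table SCML2 (0.50), VDR (0.25) and STK3 (0.36, limma adjusted p = 0.0566) moved by over 1.5 times. When siCENPF was added to siFOXM1, RAB7A was at 0.21 (SE 0.05, limma adjusted p = 0.115) and HMGA2 at 0.24 (limma adjusted p = 0.0593), and neither passed, nor did the other 8. Of all 425 that rose, 64 were higher at an unadjusted limma p under 0.05 there, as were 583 of all 14856 genes other than CENPF.

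The largest rises, in contrast, were mostly not particular to siCENPF. Of the 15 genes with the largest rise, 10 shifted equally with siFOXM1, 3 differed from it and 2 were undecided. DDAH1 (ENSG00000153904, chromosome 1, 85318481 to 85578363, minus strand), which degrades the nitric oxide synthase inhibitor dimethylarginine, stood at 7539, 6855 and 7263 normalized counts with siCENPF. The siFOXM1 libraries had 7590.0, 6344 and 6668 and the siNeg libraries 3898, 2786 and 3524. All libraries of both siRNAs were above all siNeg libraries (log2 change 1.10, standard error 0.06, limma adjusted p = 1.19e-12; 1.02 with siFOXM1), and their difference was 0.08 (95% interval -0.04 to 0.19). HDAC1, a class I histone deacetylase, stood at 1223, 1301 and 1293 with siCENPF, 1282, 1306 and 1257 with siFOXM1 and 715, 782 and 755 with siNeg (log2 change 0.76, standard error 0.06, limma adjusted p = 1.14e-08). SRPR, the receptor subunit for the signal recognition particle, stood at 4159, 3168 and 3767 with siCENPF, 3837, 3237 and 3452 with siFOXM1 and 2101, 1607 and 1975 with siNeg (log2 change 0.97, standard error 0.05, limma adjusted p = 2.28e-12). IL1B, the inflammatory cytokine, stood at 2156, 1530.1 and 734 with siCENPF, 1721, 1323 and 829 with siFOXM1 and 805, 717 and 361 with siNeg. The IL1B groups overlapped, and the rise passed with pairing (log2 change 1.18, standard error 0.08, limma adjusted p = 7.23e-10) but not without it (limma adjusted p = 0.82).

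Others of this kind were the metallopeptidase LMLN (1.40 with siCENPF, 1.57 with siFOXM1), the histone HIST1H2BK (1.11 and 1.23) and EIF5A2, a relative of the translation factor eIF5A (0.90 and 0.83). MICB, a ligand of the natural killer receptor NKG2D, was at 0.83 and 0.78, and the oestrogen and hydrocarbon oxidase CYP1B1 at 0.80 and 0.70. Exons of CYP1B1-AS1 on the other strand share 11.3% of the CYP1B1 exon bases, and AC092807.3 on the same strand shares 8.38% of those of DDAH1. TMEM106A was at 0.92 and 0.90, and KIAA1467 at 0.89 and 0.91. The histone H4C9 (1.21 and 0.93) and the cadherin CDH10 (1.20 and 0.78) were undecided. The 4 genes that fell equally were DTL, the CRL4 substrate receptor that destroys CDT1 (-0.29 with siCENPF, -0.27 with siFOXM1), the helicase subunits MCM5 (-0.28 and -0.28) and MCM3 (-0.27 and -0.26), and the chondroitin sulfotransferase CHST3 (-0.25 and -0.25). CHST3 lost its call without siNeg library 1 (log2 -0.23). In the FPKM table the siCENPF changes of LMLN (0.51), CDH10 (0.67), TMEM106A (0.47) and KIAA1467 (0.42) were over 1.5 times smaller. Without pairing 7 of the 15 largest rises were called.

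**Figure D4:**
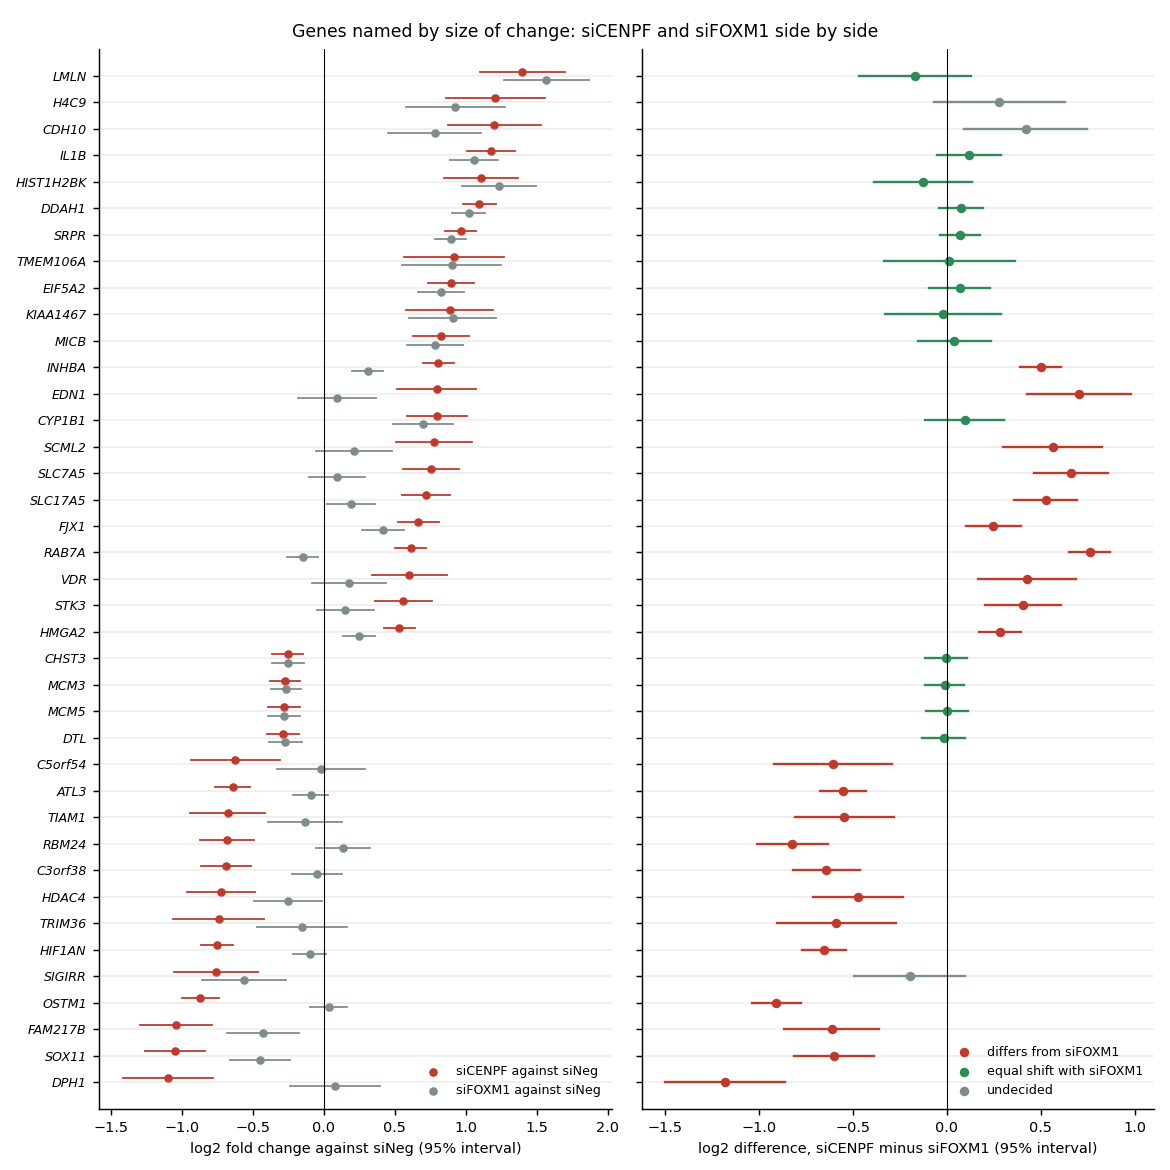
Left, log2 fold change against siNeg of the genes named by size of change, with siCENPF and siFOXM1 as separate points; right, the difference siCENPF minus siFOXM1; bars are 95% intervals. Among genes marked as differing, OSTM1, HIF1AN and RAB7A have siFOXM1 points near 0 while those of SOX11 (-0.45) and INHBA (0.31) lie part of the way to siCENPF; genes marked as equal (such as DDAH1, LMLN and SRPR) have both points together.

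Lists of CENPF's own neighbours at the kinetochore had 1 or 2 calls each, where over all genes 1.66% were called lower and 2.86% higher. In a list of its binding partners and related transport genes (binding partners below), the dynein adaptor BICD2 fell (7.14% of 14 measured). That BICD2 binds CENPF is not implied. The other 13 did not pass, including the dynein regulators NDE1 (-0.07) and NDEL1 (0.11), the Miro proteins RHOT1 (0.10) and RHOT2 (0.08) and the checkpoint kinase BUB1 (-0.14). Of 16 inner kinetochore genes CENPU was the 1 that fell (-0.22; 6.25%), of 13 outer kinetochore genes ZWINT (-0.26; 7.69%), and of 15 genes of centromere chromatin and CENP-A loading the loading chaperone HJURP (-0.19; 6.67%). Of 15 corona and motor genes the microtubule plus-end protein CLIP1 rose (0.26) and its partner CLASP1 fell (-0.24). Of 9 spindle checkpoint genes BUB3 fell (-0.18). Medians of these lists ran from -0.16 (outer kinetochore) to -0.07 (binding partners), against -0.00 over all genes. With 1 library left out they stayed between -0.20 (outer kinetochore) and -0.03 (binding partners), both ends being without siNeg library 2. Single pairs varied more. Medians of pairs 1, 2 and 3 were 0.02, -0.02 and -0.08 for binding partners and -0.10, -0.03 and -0.11 for centromere chromatin. They were -0.15, -0.02 and -0.13 for the inner and -0.12, -0.03 and -0.19 for the outer kinetochore. Corona and motor genes had -0.04, -0.10 and -0.03, and checkpoint genes -0.13, -0.01 and -0.12. Members below 0 numbered 13 of 16 in the inner and 12 of 13 in the outer kinetochore, where all genes had 7456 below and 7401 above. ZWINT kept its call whichever library was left out. CENPU and BUB3 lost theirs without siCENPF libraries 1 or 3 or siNeg libraries 1 or 3 (CENPU -0.25 to -0.16, BUB3 -0.19 to -0.13), HJURP without any library but siNeg 2 (-0.21 to -0.16), CLASP1 without libraries 1 or 2 of either group (-0.27 to -0.14) and CLIP1 without library 1 of either (0.21 to 0.24).

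FOXM1 targets and mitotic genes stood slightly lower as a whole. Of 24 FOXM1 targets, 23 had negative log2 fold changes with a median of -0.11, and AURKA (-0.35) and the topoisomerase TOP2A (-0.17) passed the test (8.33%, against 1.66% of all genes lower). TOP2A lost its call when any 1 of the 6 libraries was left out (log2 -0.19 to -0.14). Of the same 24 genes siFOXM1 lowered 10 and raised 2 (median -0.03). Of 28 spindle and cytokinesis genes, 27 were below 0 with a median of -0.13. The spindle kinesin KIF15 (-0.35), the hyaluronan and microtubule binder HMMR (-0.30) and the importin KPNA2 (-0.21) fell (10.7% of the list), and 5 of the list without siNeg library 2. KIF15 lost its call without siCENPF library 1 or siNeg library 1 (log2 -0.31 to -0.24) and KPNA2 without siCENPF library 3 (log2 -0.17). Of 7 chromosomal passenger and shugoshin genes all were below 0 (median -0.17) and 0 passed by limma, with 4 at an unadjusted p under 0.05 and 1 each by edgeR and DESeq2. Of 23 cohesin and condensin genes 20 were below 0 and 0 passed by limma, edgeR or DESeq2, with 8 at an unadjusted p under 0.05. Of all 14857 genes, 2511 had an unadjusted p under 0.05 by limma, in either direction. Quantile normalization raised the number of spindle genes called lower to 9. Of the 28 spindle and cytokinesis genes siFOXM1 lowered 5 and raised 2 (median 0.03).

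Genes of replication origin licensing fell in a larger share than those of any other list described here. Of 21 genes 9 fell (42.9%, against 1.66% of all genes) and 0 rose, with a median of -0.19, and the median was -0.20, -0.17 and -0.25 in pairs 1, 2 and 3. GINS1, a subunit of the GINS complex of the replicative helicase, stood at 422, 469.9 and 540.2 normalized counts with siCENPF, against 721, 556 and 768 with siNeg (log2 change -0.51, standard error 0.09, limma adjusted p = 0.000525). CDT1, which loads the MCM helicase on origins, stood at 1008, 660.5 and 1002 with siCENPF, against 1220.0, 877 and 1318 with siNeg (log2 change -0.36, standard error 0.07, limma adjusted p = 0.000836). MCM3 stood at 2545, 2829.5 and 3374 with siCENPF, 2729, 2720.1 and 3340.5 with siFOXM1 and 3195, 3277 and 4105 with siNeg (log2 change -0.27, standard error 0.05, limma adjusted p = 0.00101). In each pair of these 3 genes the siCENPF library was lower. The groups did not overlap for GINS1 and did for CDT1 and MCM3. The origin recognition subunit ORC1 (-0.46), GINS2 (-0.41), MCM10 (-0.35), MCM5 (-0.28), MCM2 (-0.24) and MCM7 (-0.22) fell as well. CDC6 (-0.21), MCM4 (-0.15) and MCM6 (-0.15) did not pass. With siFOXM1 9 of the 21 passed as lower too, with a median of -0.18. MCM3 and MCM5 were marked as equal, GINS1 fell further with siCENPF (-0.33 against siFOXM1), and the other 6 were undecided. MCM2 lost its call without siNeg library 3 (log2 -0.19). Genes on the other strand share 22.7% of the exon bases of MCM2 (AC023593.1) and 8.94% of those of MCM7 (AP4M1), and without strand their reads cannot be told apart. Leaving out 1 library left 8 to 10 lower, but without pairing 0 passed by limma or edgeR, with 2 at an unadjusted p under 0.05 by each. Without pairing, 821 of all 14857 genes had such an unadjusted p by limma.

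Other S phase genes moved by a similar amount with fewer calls. Of 30 replication fork genes 28 were below 0 (median -0.16) and 3 fell (10.0%, against 1.66% of all genes): the flap endonuclease FEN1 (-0.28), the checkpoint mediator CLSPN (-0.28) and the methylation maintenance factor UHRF1 (-0.29). CLSPN lost its call without siCENPF library 1, siCENPF library 3 or siNeg library 3 (log2 -0.29 to -0.23) and UHRF1 without siCENPF library 1 or siNeg library 2 (log2 -0.25 to -0.19). Of 20 G1/S regulators 5 fell (25%), namely CDK6, E2F1 (-0.38), E2F2 (-0.51), cyclin E2 (CCNE2, -0.30) and the CDK inhibitor CDKN2C (-0.35). Of 28 genes of homologous recombination and the DNA damage response 3 fell (10.7%), the helicase BLM (-0.39), BRCA2 (-0.32) and the nuclease EXO1 (-0.30). Calls were lost for CCNE2 without siCENPF library 2, siCENPF library 3 or siNeg library 3 (log2 -0.27 to -0.23), for CDKN2C without siCENPF library 1 or siNeg library 1 (log2 -0.32 to -0.21) and for E2F2 without siCENPF library 2, siNeg library 1, siNeg library 2 or siNeg library 3 (log2 -0.56 to -0.33). They were lost for BLM without siCENPF library 2 or siNeg library 2 (log2 -0.33 to -0.31), for BRCA2 without siCENPF library 2, siCENPF library 3, siNeg library 1, siNeg library 2 or siNeg library 3 (log2 -0.35 to -0.25) and for EXO1 without siCENPF library 1, siCENPF library 3, siNeg library 1 or siNeg library 3 (log2 -0.31 to -0.27). With 1 library left out, 3 or 4 of the G1/S list were called lower, and 1 of the fork list (without siCENPF library 1) to 4. Of the recombination list 3 were called without siCENPF library 1 and 1 without any other library. These shifts were not particular to siCENPF as lists. Against siNeg, siFOXM1 lowered 6 of the fork list, 6 of the G1/S list and 3 of the recombination list (medians -0.10, -0.16 and -0.07).

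Licensing genes are textbook targets of E2F factors, so their promoters were searched for E2F words, and the windows around the words are shown to let the letters be seen. The words TTTCCCGC, TTTCGCGC, TTTGCCGC and TTTGGCGC (none the reverse complement of another) were searched on both strands in the 250 bases before each gene start of RefSeq (GRCh38.p14). At least 1 word stood in 33.3% of the licensing promoters (6 of 18 with a promoter) and in 4 of the 8 whose gene fell. It stood in 9.05% of promoters of all genes that fell (18 of 199), in 4.20% of those that rose (14 of 333), in 4.47% of genes tested and in 2.79% of all 27305 promoters. A match describes letters only. In the windows, capitals mark the word, or its reverse complement where it lies on the other strand, and each is printed along the strand of its gene.
MCM3, chr6:52284898-52284927, minus strand: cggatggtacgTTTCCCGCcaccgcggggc
MCM7, chr7:100101398-100101427, minus strand: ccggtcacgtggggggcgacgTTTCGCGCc
CDT1, chr16:88803743-88803772, plus strand: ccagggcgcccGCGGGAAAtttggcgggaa
GINS2, chr16:85688967-85688996, minus strand: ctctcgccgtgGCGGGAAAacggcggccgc
The promoter of MCM7 held 2 words, of which 1 is shown. None of the words was in the 250 bases of MCM2, MCM10, ORC1 and GINS1. MCM5 is named only.

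Genes of the secretory pathway lay mostly on the other side of 0. All 21 genes of the unfolded protein response and endoplasmic reticulum chaperones had positive log2 fold changes (median 0.14), and 3 rose (14.3%, against 2.86% of all genes): the transcription factor XBP1 (0.35), the co-chaperone DNAJB9 (0.52) and the chaperone BiP (HSPA5, 0.23). XBP1 stood at 2306, 1306 and 1493 normalized counts with siCENPF, against 1786, 997 and 1216 with siNeg (log2 change 0.35, standard error 0.07, limma adjusted p = 0.00112). Of the same 21 genes siFOXM1 raised 4 and lowered 1 (median 0.10). Of 24 COPII and COPI transport genes 20 were above 0 (median 0.13) and 6 rose (25%), among them the COPII coat subunits SEC31A (0.68) and SEC24D (0.33), the GTPase ARF4 (0.53) and the retrieval receptor KDELR3 (0.54). SEC31A stood at 5351, 4347 and 4707 with siCENPF, 5140.5, 4422 and 4377 with siFOXM1 and 3385, 2806 and 2779.6 with siNeg, so that both siRNAs raised it alike. Of the 6, 3 were marked as equal and 1 as differing, and siFOXM1 raised 6 of the 24. Of 21 genes of signal recognition and translocation SRPR and the signal peptidase subunit SPCS3 (0.19) rose (9.52%). HSPA5 lost its call without siCENPF library 1 (log2 0.20), KDELR3 without siCENPF library 3 or siNeg library 1 (log2 0.44 to 0.47) and SPCS3 without siCENPF library 1, siNeg library 1 or siNeg library 2 (log2 0.18 to 0.19). Without pairing SEC31A and ARF4 were called and 0 of the unfolded protein response genes by limma or edgeR (0 at an unadjusted p under 0.05). With pairing, 2 of the unfolded protein response list were called without siCENPF library 1 and 6 without siCENPF library 3.

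Within the integrated stress response, the programme run by ATF4, both chains of an amino acid transporter rose. Of 22 genes 4 rose (18.2%, against 2.86% of all genes) and 0 fell. The median was 0.15, against -0.04 with siFOXM1, and it was 0.09 without siCENPF library 1 and 0.25 without siCENPF library 3. SLC7A5 (0.76) and its heavy chain SLC3A2 (0.39) were both higher than with siFOXM1 (by 0.66 and 0.54). SLC3A2 stood at 5363, 1908 and 3539 normalized counts with siCENPF, against 3868, 1367 and 3029 with siNeg, higher in each pair (log2 change 0.39, standard error 0.06, limma adjusted p = 0.000237). The secreted glycoprotein STC2 (0.36) and the leucine sensor SESN2 (0.54) rose equally with siFOXM1 (0.40 and 0.61). ATF4 itself was at 0.17 (limma adjusted p = 0.105). Of 20 aminoacyl-tRNA synthetases, another set of ATF4 targets, 0 passed by limma, edgeR or DESeq2 (range -0.10 to 0.11), with 2 at an unadjusted p under 0.05 by each. Of all 14857 genes, 2511 had such an unadjusted p by limma. The count of 4 in the integrated stress response list was 4 or 5 with 1 library left out, and 0 by limma or edgeR without pairing. Without pairing 1 of its genes had an unadjusted p under 0.05, against 821 of all 14857 genes by limma.

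**Figure D5:**
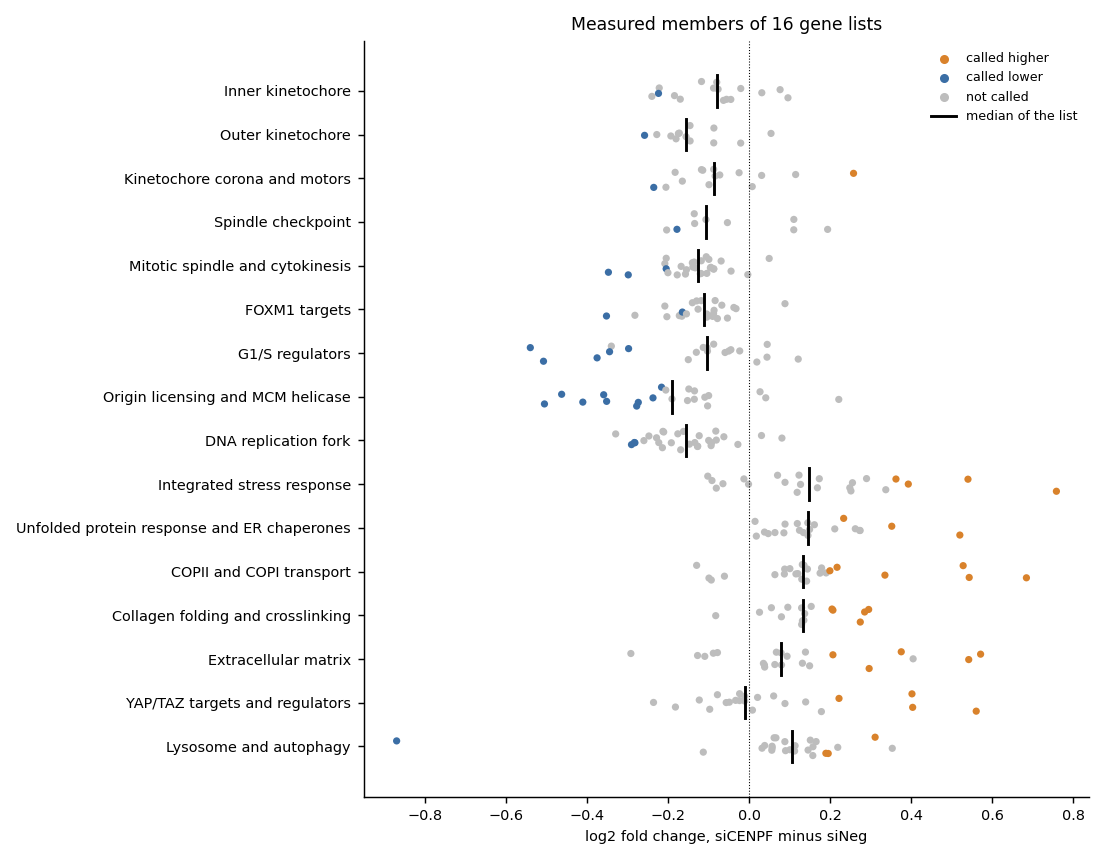
Log2 fold change of siCENPF against siNeg for every measured member of 16 gene lists (dots, coloured where the member passed the test), with a bar at each median. Kinetochore, mitotic and replication lists lie left of 0 with medians of -0.19 to -0.08, and the unfolded protein response, COPII and stress response lists right of 0 with medians of 0.13 to 0.15.

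Genes for the matrix outside the cell and for its folding rose in part. Of 16 collagen folding and crosslinking genes 15 were above 0 (median 0.13) and 5 rose (31.2%, against 2.86% of all genes), among them the collagen chaperone SERPINH1 (0.29), the prolyl hydroxylases LEPRE1 (0.28) and P4HA2 (0.27) and the lysyl oxidase LOX (0.21). SERPINH1 stood at 5790.0, 5979.7 and 5689.6 normalized counts with siCENPF, against 5034, 4732 and 4484 with siNeg (log2 change 0.29, standard error 0.05, limma adjusted p = 0.000317). Of the 16 folding genes siFOXM1 raised 4 and lowered 1 (median 0.09). Of 22 matrix genes 5 rose (22.7%, median 0.08), including COL4A1 (0.57), SPARC (0.37), thrombospondin 1 (THBS1, 0.54) and fibrillin 1 (FBN1, 0.30), and siFOXM1 raised 8 of the 22. The matrix median was 0.02 without siCENPF library 3 or siNeg library 3, 0.12 without siCENPF library 1, 0.14 without siCENPF library 2 and 0.16 without siNeg library 2, and 3 matrix genes were called without siCENPF library 3. Calls were lost for LEPRE1 without siNeg library 3 (log2 0.22), for P4HA2 without siCENPF library 1, siNeg library 2 or siNeg library 3 (log2 0.24 to 0.26), for LOX without siCENPF library 3 or siNeg library 2 (log2 0.17 to 0.20), for THBS1 without siCENPF library 2 (log2 0.54) and for FBN1 without siCENPF library 3 (log2 0.23). Of the folding list 4 were called without siNeg library 1 or any siCENPF library, 3 without siNeg library 3 and 2 without siNeg library 2. Without pairing 0 of the folding list and 1 of the matrix list passed, by limma and by edgeR alike. In the FPKM table, with pairing, 1 folding gene and 3 matrix genes were called higher.

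Of 22 targets and regulators of the Hippo effector YAP, 4 rose (18.2%, against 2.86% of all genes) and 0 fell, or 2 without siCENPF library 1. The median was -0.01, from -0.03 without siCENPF library 3 to 0.02 without siNeg library 1. The matricellular genes CTGF (0.40) and CYR61 (0.22), the clotting receptor tissue factor (F3, 0.40) and STK3 rose. CTGF stood at 20648, 13207 and 17715 normalized counts with siCENPF, 15258, 8896 and 12985 with siFOXM1 and 17164, 8647 and 14129 with siNeg (log2 change 0.40, standard error 0.05, limma adjusted p = 2.05e-05). CTGF, F3 and STK3 were marked as differing from siFOXM1, by 0.48, 0.30 and 0.41. Of the same 22 genes siFOXM1 raised 1 and lowered 7 (median -0.08). Of 23 integrin and focal adhesion genes the fibronectin receptor chain ITGA5 (0.34), the adaptor LIMS1 (0.62) and caveolin 1 (CAV1, 0.22) rose (13%). Of these 3, 1 was marked as equal with siFOXM1 and 0 as differing. Among the 23, siFOXM1 raised 4 and lowered 1, with a median of 0.09 against 0.05 for siCENPF. In the TGF-beta pathway INHBA and the induced matrix gene TGFBI (0.25) rose, and the BMP target ID1 fell (-0.39), 9.52% and 4.76% of 21 genes. Of the same 21 genes siFOXM1 raised 5 and lowered 1 (median 0.03). Without siNeg library 1, 4 of these genes were called higher, and 1 was higher and 2 lower without siNeg library 3. TGFBI lost its call without siNeg library 3 (log2 0.17).

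Lysosomal genes lay mostly above 0, apart from the fall of OSTM1. Of 24, 22 were above 0 (median 0.11), 3 rose (12.5%, against 2.86% of all genes) and 1 fell (4.17%, against 1.66%). The protease CTSA (0.19), the autophagosome protein MAP1LC3B (0.19) and the autophagy factor WIPI1 (0.31) rose, and 0 to 3 of the list were called higher with 1 library left out. CTSA, MAP1LC3B and WIPI1 each lost the call without siCENPF libraries 1 or 2 or any siNeg library (CTSA 0.15 to 0.20, MAP1LC3B 0.16 to 0.20, WIPI1 0.25 to 0.34).

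Inflammatory, p53 and hypoxia genes were called in part. Of 17 NF-kappa-B and cytokine genes IL1B, LIF (0.28) and CSF1 (0.44) rose (17.6%, against 2.86% of all genes), with 1 called without siCENPF library 1 and 4 without siCENPF library 3 or siNeg library 3. LIF lost its call without siCENPF library 1 (log2 0.21) and CSF1 without siCENPF library 1, siNeg library 1 or siNeg library 3 (log2 0.27 to 0.39). Of 30 interferon-stimulated genes 0 passed by limma, edgeR or DESeq2, and 0 had an unadjusted p under 0.05, over a range of -1.56 to 0.43. Their summed normalized counts were 83119, 9292 and 7645 in siCENPF libraries 1 to 3 and 63648, 9561 and 9569 in siNeg libraries 1 to 3. Library 1 of both groups thus stood far above the others. Medians of pairs 1 to 3 were 0.41, -0.01 and -0.57. With such spread, the lack of calls does not show that these genes were unchanged. Of 23 p53 targets BBC3 (0.65) and SESN2 rose (8.70%) and AEN (-0.25), PPM1D (-0.35) and TP53INP1 (-0.36) fell (13%, against 1.66% of all genes). The p53 median was 0.05, and 0.08 without siCENPF library 1 or siNeg library 3. Calls were lost for BBC3 without siCENPF library 1 or siNeg library 1 (log2 0.48 to 0.59), for AEN without siCENPF library 2, siCENPF library 3, siNeg library 1 or siNeg library 3 (log2 -0.24 to -0.22), for PPM1D without siCENPF library 1, siCENPF library 2, siNeg library 1, siNeg library 2 or siNeg library 3 (log2 -0.38 to -0.31) and for TP53INP1 without siCENPF library 1, siCENPF library 2, siNeg library 1 or siNeg library 2 (log2 -0.39 to -0.25). Of 19 HIF hydroxylase and hypoxia genes HIF1AN and the HIF partner ARNT (-0.33) fell (10.5%) and LDHA (0.25) rose (5.26%), with ARNT lost without siCENPF library 1 or siNeg library 2 (log2 -0.30 to -0.29). Of 8 SOX factors SOX11 and SOX4 (-0.43) fell (25%), the SOX4 call being lost without siCENPF library 1, siCENPF library 3 or siNeg library 1 (log2 -0.42 to -0.32). All lists were chosen with earlier results of these data known, so these shares are descriptions only. In each list not described here at most 2 members passed the test.

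In the authors' deposited table for this comparison, 11 of 14306 genes were marked as up and 6 as down, with adjusted p of at most 0.00869 and absolute log2 fold changes of at least 0.73. At the threshold of 0.05 used here, 27 genes of the authors' deposited table passed, 18 higher and 9 lower, and all 27 were among the 671 in the same direction. In the authors' deposited table CENPF had a log2 fold change of -3.21, DDAH1 of 1.08, SOX11 of -1.06 and LMLN of 1.41.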

How the data were processed

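PolyA RNA of 12 hTERT-RPE1 libraries was measured. The tools were TopHat on hg38 after bcl2fastq and Trimmomatic, with edgeR, per the submitters' processing notes; the sources used here do not give options, strand setting or versions. The authors deposited a table of normalized counts, a count-like signal whose scaling between libraries is not described. They deposited FPKM for all genes, used here as an alternative and for marker levels. The authors' deposited edgeR table for this comparison holds, per the file headers, the p-value and likelihood ratio score of each gene beside its log2 fold change and its CPM. Deposited CPM were whole multiples of 1 read at 100% of values within 0.01 reads, so reads were recovered for edgeR and DESeq2. Depth was 13671250 to 35411230 reads in genes per library.

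The test was limma 3.58.1 (R 4.3.3) with trend and robust moderation on log2(normalized count + 1), two-sided, in all 12 libraries with 4 group means and replicate number as a block. A gene entered with 10 or more normalized counts in 3 or more libraries, and Benjamini-Hochberg adjustment was over all of these, with a threshold of 0.05. Fold changes on this scale understate low genes. Values are given as log2 fold changes of siCENPF against siNeg unless another contrast is named. Same-numbered siCENPF and siNeg libraries deviated together from their group means (r across genes of 0.639, 0.550 and 0.375 in pairs 1 to 3), and the pairing itself comes from the replicate numbers in the labels. Named genes were CENPF and FOXM1, the 15 largest changes in each direction (mean of at least 100 normalized counts, same direction in all 3 pairs, official-style symbol), 10 of each differing from siFOXM1, up to 5 of each equal, and up to 4 members per list by adjusted p. A few other members are given for context of their complex, and some genes that the rule names are not reported here. Members and lists were chosen with earlier results of these data known. Alternatives were fits without the block, edgeR 4.0.16, DESeq2 1.42.0, FPKM + 0.5, other pseudocounts, filters and scalings, and each library or replicate number left out. The limma and edgeR fits were also run on simulated counts, and DESeq2 was not.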

Additional observations from a re-analysis of the deposited data

How the results depend on the processing

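CENPF kept its fall under every alternative run, between -3.31 and -3.09 with 1 library left out and between -3.33 and -3.05 with 1 replicate number left out of every group. FOXM1 did not pass the test in any of them, and its log2 fold change lay between -0.27 and -0.13 in both kinds of left-out fit.

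Counts moved most without the replicate block. The count of genes called with siCENPF was then 50 by limma and 49 by edgeR (32 higher in both, 18 and 17 lower). With siFOXM1 against siNeg it was 98 and 99, with siCENPF against siFOXM1 68 and 69, for genes that differ from siFOXM1 10 and 9, and for equal genes 19 and 20. Genes called again are counted here as those that each alternative itself called both with siCENPF and when siCENPF was added to siFOXM1; 0 higher and 0 lower were counted by either tool. The FPKM table gave 321 genes (169 higher, 152 lower), 741 with siFOXM1, 504 between the siRNAs, 85 that differ, and 0 higher and 1 lower called again. A fit to the libraries of the compared groups only gave 295 (198 higher, 97 lower), 100 that differ, and 14 higher and 35 lower called again. DESeq2 gave 9 called again higher by its own calls in both contrasts. The cause was not tested.

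With 1 siCENPF or siNeg library left out, calls ranged from 413 to 593 (274 to 377 higher, 139 to 216 lower), from 781 to 1620 with siFOXM1 and from 760 to 1361 between the siRNAs. Genes that differ ranged from 127 to 186, equal genes from 50 to 88, and those called again from 3 to 10 higher and 15 to 27 lower. Leaving out replicate number 1 of every group gave 294 (206 higher, 88 lower), 674, 482, 77, 38, 1 and 2 in the same order. Without number 2 these were 623 (397 higher, 226 lower), 1119, 689, 147, 66, 6 and 12, and without number 3 they were 353 (224 higher, 129 lower), 521, 607, 111, 42, 2 and 7.

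These p-values rest on 3 libraries a group and 1 siRNA treatment per target, of which the sources used here do not say whether it was a single duplex or a pool. Genes of low count or low FPKM are limited by depth and by the pseudocount.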
